A study of Mus musculus with 12 samples.

Results

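Gene expression in sorted mouse midbrain cells was compared between 12 and 7 weeks after an injection into the substantia nigra, across both treatments of the series. All 12 libraries entered, 6 from each time. At each time 3 libraries came from C57BL/6 mice given saline and 3 from C57BL/6 mice given preformed fibrils of G51D α-synuclein, 20 µg at 5 µg/µL, with both sides injected. Cells positive for hKO1, a fluorescent protein that the submitters used to mark dopaminergic neurons, were sorted from dissected midbrain, and RNA was amplified before sequencing. Of the 24346 genes of the table, 17380 had enough counts to be tested. Positions are those of the deposited files, counted from 1, and the sources used here do not name their genome build. Each treatment's change from 7 to 12 weeks was estimated in 1 model, and the reported log2 fold is the mean of the saline and the synuclein change, positive where the level was higher at 12 weeks. The labels give neither the animals' ages nor collection, sorting or sequencing dates, and no source of the hKO1 reporter. Age, handling and time after injection therefore cannot be told apart. Whether the 3 libraries of a group came from different animals is not stated in the labels, and the p-values rest only on the spread between these libraries, which may be technical.

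Dopaminergic neurons of the substantia nigra make dopamine with tyrosine hydroxylase, load it into vesicles and release it in the striatum. Oligodendrocytes wrap axons in myelin, a membrane rich in cholesterol, sulfated galactolipids and a small set of structural proteins, and the factors Sox10 and Myrf switch these genes on. Myelin is still being added and remodelled in the adult mouse brain.

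The libraries held 2506730 to 5533324 assigned fragments at 7 weeks and 2590172 to 5022491 at 12 weeks. Th, which marks the intended cells, was present in every library (160.5 to 857.6 counts per unit of library size, CPM, with TMM scaling). The sorted material also held RNA of other cell types in every library. Markers of mature oligodendrocytes summed to 24599 to 37841 CPM at 7 weeks and 35554 to 65064 at 12 weeks, over 25 genes. Pan-neuronal markers, also 25 genes, summed to 2128 to 5924 CPM at 7 weeks and 1301 to 2079 at 12 weeks, with no overlap. Sums of endothelial genes were 28311 to 51453 and 19711 to 36486 CPM. In 4 libraries some values stood apart. Replicate 2 of synuclein at 12 weeks lay alone on the first principal component (170.5 against −29.3 to 12.9) and replicate 1 of the same group on the second (−100.5 against −23.8 to 39). Replicate 1 of synuclein at 7 weeks had the highest pan-neuronal sum and 757.8 CPM of serotonergic and noradrenergic markers, against 23.5 to 194.7 in the others. Replicate 3 of synuclein at 7 weeks had the highest sums of microglia markers and of pericyte genes. In bulk RNA a smaller number of cells of a type and less RNA per cell cannot be told apart. The part of cell makeup in the changes below was not tested.

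**Figure D1:**
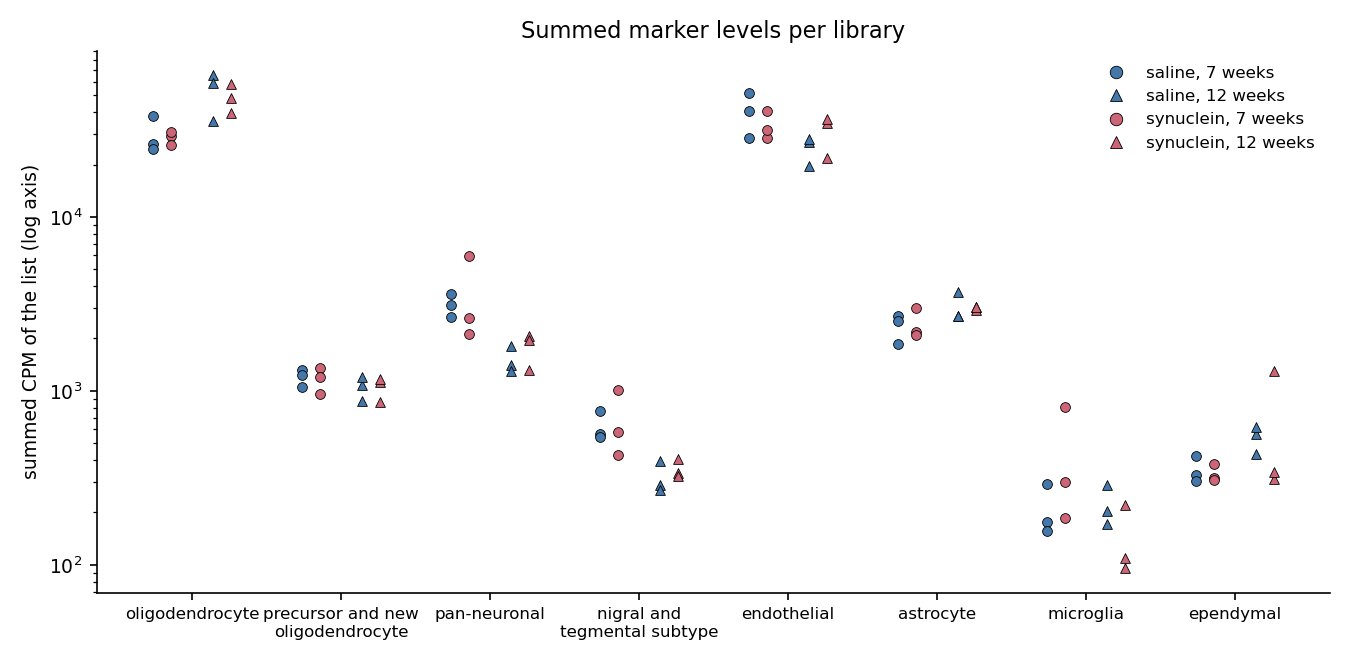
Summed CPM of 8 marker lists in each library (log axis), with circles for 7 weeks, triangles for 12 weeks and colour for the treatment. The 6 pan-neuronal sums at 12 weeks (1301 to 2079 CPM) lie below all 6 at 7 weeks (2128 to 5924), while the oligodendrocyte sums overlap.

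From 7 to 12 weeks, several genes of myelin and of oligodendrocytes rose and several genes of neurons fell. EdgeR's quasi-likelihood test called 145 of 17380 genes at a Benjamini-Hochberg adjusted p under 0.05 (0.834%). Of these, 94 were higher at 12 weeks (0.541%) and 51 lower (0.293%), and 1707 genes had an unadjusted p under 0.05 (9.82%). The median fold over all genes tested was −0.03 on the log2 scale, with 47.0% of genes above 0 and the others below. Genes called higher had a median of 1.06, between 0.76 and 2.24, and genes called lower a median of −1.34. Both sets were expressed well above the rest: their median levels were 138.9 and 102.0 CPM, against 19.58 CPM over all genes tested. The test favours such genes, since the median standard error of a fold was 0.18 above 100 CPM and 0.37 over all genes. The 6 libraries of one time did not overlap with the 6 of the other for 53 of the 94 higher genes and 19 of the 51 lower genes. Over all genes tested, 97 were free of overlap in the higher direction (0.558%) and 67 in the lower (0.386%).

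**Figure D2:**
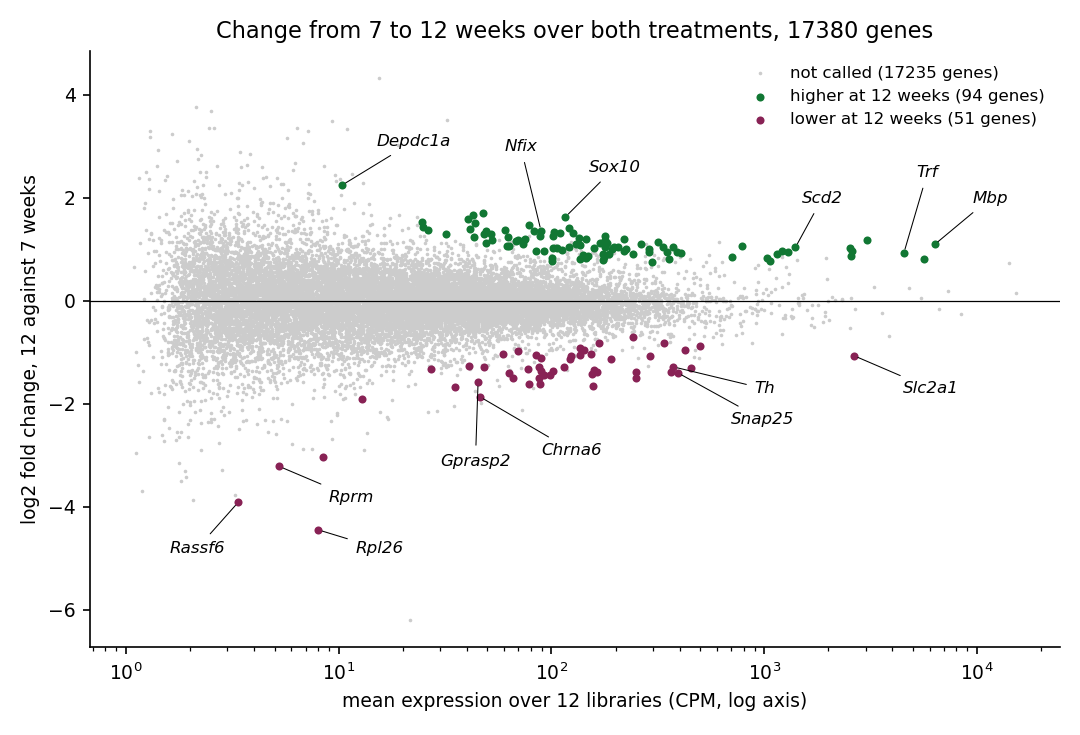
Log2 fold change from 7 to 12 weeks over both treatments (vertical axis) against mean CPM over 12 libraries (log axis) for 17380 genes, with the 94 genes called higher and the 51 called lower in colour. Most called genes lie above 19.58 CPM, the median level, and the widest folds among genes called lower belong to Rpl26, Rassf6 and Rprm, which have few counts.

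The count of called genes depended on single libraries. With 1 library left out it ranged from 24 to 214. It was 32 without replicate 2 and 24 without replicate 3 of saline at 7 weeks. Without replicate 1 or 2 of synuclein at 7 weeks it was 28 and 38. At 12 weeks it was 27 without replicate 1 and 29 without replicate 3 of saline, and 38 without replicate 1 of synuclein. Without both synuclein libraries that stood apart at 12 weeks, 0 genes were called by edgeR (1414 at an unadjusted p under 0.05), although all 145 genes kept their sign, with medians of 0.91 for the 94 higher and −1.33 for the 51 lower. The direction of all 145 genes also stayed the same in each of the 12 fits that left out 1 library. Picking the genes by their folds in these same libraries favours a kept sign. In those 12 fits, 18 genes were called every time. Of these, 15 were higher: Mbp, Sox10, Myrf, Cntn2, Scd2, Nfix, Galnt6, Rassf2, Aatk, Tmem88b, Ddr1, Plekhb1, Slc6a9, Trim59 and Frmd5. The other 3, Snap25, Gprasp2 and Atp6v1g2, were lower. The remaining 127 called genes lost their call in at least 1 of these fits.

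Of 15 structural proteins of myelin, 14 had a fold above 0 and the median was 0.78, against −0.03 over all genes. The test called 6 of them higher (against 0.541% of all genes called higher). That share is the background for each count of list members called higher below. Mbp (chromosome 18, 82475123 to 82585637), the myelin basic protein that holds the cytoplasmic faces of the sheath together, was at 3364, 3979 and 5106 CPM (lowest, median and highest of 6 libraries) at 7 weeks and at 6307, 8582 and 10737 CPM at 12 weeks. Every 12-week library lay above every 7-week library. Its fold was 1.09 ± 0.16 (SE, adjusted p = 0.016), and between 1.05 and 1.19 with any 1 library left out. Mobp (chromosome 9, 120149742 to 120176091), a small basic protein of the same membrane layers, went from 718.2, 772.5 and 895.2 to 899.6, 1440 and 1585 CPM, also without overlap, a fold of 0.78 ± 0.16 (adjusted p = 0.0376). Cnp, a phosphodiesterase that keeps cytoplasmic channels open in the sheath, went from 1448, 1759 and 2309 to 2182, 3058 and 4780 CPM. Its groups overlapped by 1 pair of libraries at the edge, and the fold was 0.87 ± 0.19 (adjusted p = 0.0469). Cldn11, which forms the tight junctions between myelin layers, rose by 0.89 ± 0.20 and Ermn, a late cytoskeletal protein of oligodendrocytes, by 0.92 ± 0.21. Gpm6b, a tetraspan membrane glycoprotein of glia and neurons, rose by 0.85 ± 0.19, with no overlap between 443.9 to 575.6 and 591.0 to 1182 CPM.

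Other markers of mature oligodendrocytes lay higher as well. Over the list of 25, which shares Mbp, Mobp, Cnp, Cldn11 and Ermn with the myelin proteins, 9 were called higher, 24 had a fold above 0 and the median was 0.85. Trf, the iron carrier transferrin, rose from 2476, 3063 and 3807 to 3307, 6170 and 7904 CPM, by 0.92 ± 0.21. Apod, a lipid-binding apolipoprotein of glia, rose from 546.7, 724.5 and 952.8 to 958.3, 1388 and 1546 CPM without overlap, by 0.83 ± 0.18. Hapln2, which anchors the matrix at nodes of Ranvier, rose by 0.91 ± 0.20 and Ppp1r14a, an inhibitor of myosin phosphatase, by 1.18 ± 0.27. With 1 library left out, 1 to 15 of the 25 passed and the median stayed between 0.75 and 1.02.

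Transcription factors of the oligodendrocyte lineage included 4 called members. Of 16 tested, 14 were above 0 and the median was 0.81. Sox10 (chromosome 15, 79154913 to 79164490), which drives the myelin genes together with Myrf, was at 39.2, 51.7 and 94.6 CPM at 7 weeks and at 97.2, 177.5 and 279.9 CPM at 12 weeks. The highest 7-week library stayed just under the lowest 12-week library. The fold was 1.62 ± 0.25 (adjusted p = 0.016). Myrf (chromosome 19, 10208271 to 10240748), a membrane-tethered factor that is cut to release its DNA-binding part, went from 18.7, 36.6 and 42.3 to 61.5, 86.9 and 116.2 CPM, a fold of 1.37 ± 0.22 (adjusted p = 0.016) with a clear gap between the times. Olig1, a basic helix-loop-helix factor of the whole lineage, rose by 0.81 ± 0.18 and Zfp536, a zinc finger protein, by 1.07 ± 0.21, both without overlap. Precursor and newly formed oligodendrocyte markers gave another picture: 1 of 18 was called, 10 were below 0 and the median was −0.12. Their sum was 956.0 to 1357 CPM at 7 weeks and 864.3 to 1194 at 12 weeks. Pdgfra, the growth factor receptor that marks precursors, was at 3.46 to 16.6 and 6.21 to 16.7 CPM, a fold of −0.26 ± 0.43 (adjusted p = 0.943). Bcas1, found in newly myelinating cells and in mature myelin, was the called member, at 32.3, 52.4 and 93.1 CPM and then 77.6, 142.5 and 233.2 CPM, a fold of 1.33 ± 0.25 (adjusted p = 0.0263). It shares its locus with another gene model in the deposited files, so its counts are uncertain.

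**Figure D3:**
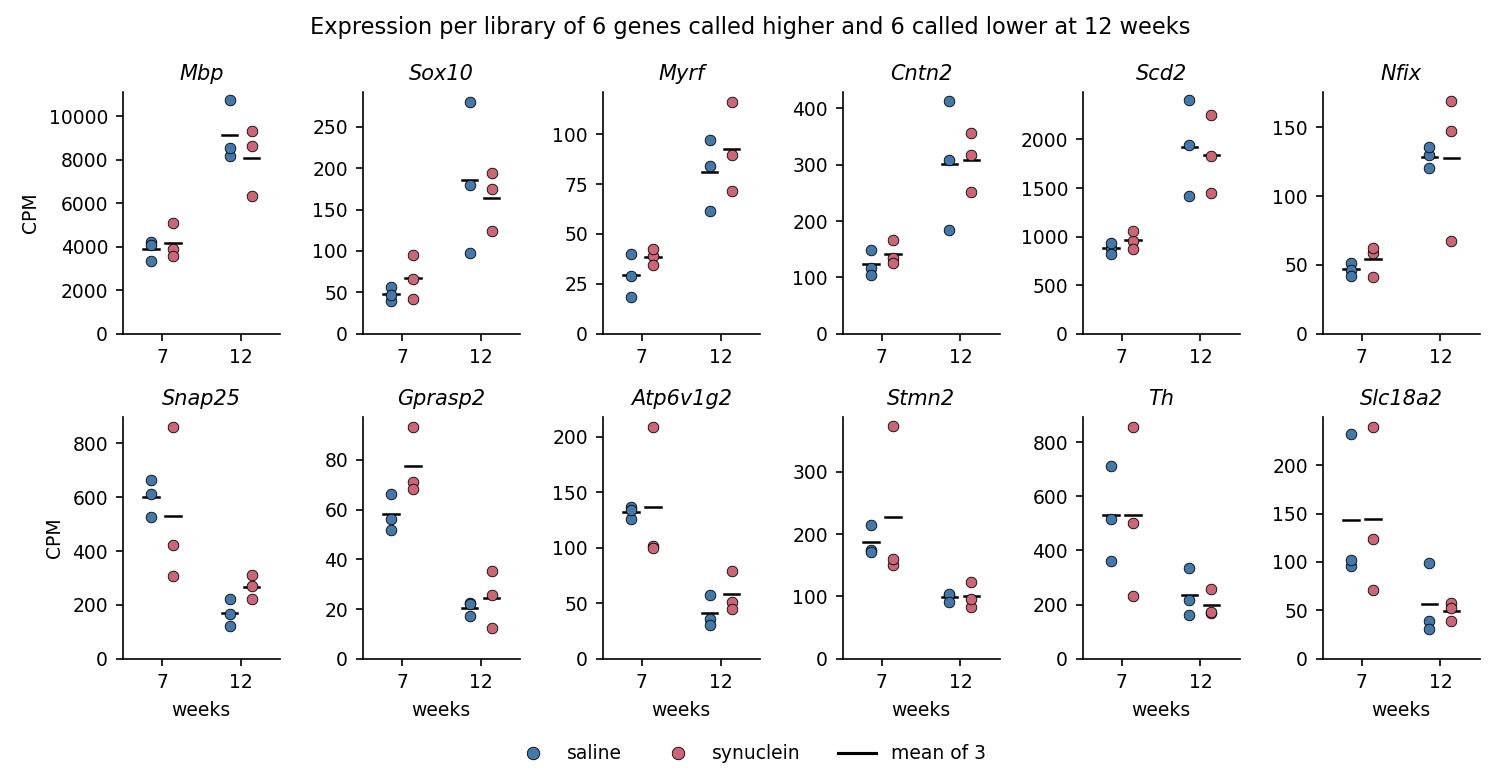
CPM in each of 12 libraries for 6 genes called higher and 6 called lower at 12 weeks, with colour for the treatment and a bar for the mean of 3 libraries. Mbp, Sox10, Myrf, Cntn2, Scd2 and Nfix show no overlap between times, while Snap25, Th and Slc18a2 do.

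Some genes that make lipids of the sheath also rose. In the list of fatty acid and myelin lipid synthesis, 5 of 22 were called higher, 20 were above 0 and the median was 0.51. The 5 include Enpp2 and Plekhb1, which are not enzymes that make sheath lipids. Scd2 (chromosome 19, 44293676 to 44306862), the main brain enzyme that puts a double bond into stearic acid, went from 816.2, 910.2 and 1053 to 1414, 1890 and 2408 CPM, a fold of 1.04 ± 0.17 (adjusted p = 0.016) with a wide gap between the times. Its neighbour Scd1, with the same activity, went from 31.3, 35.2 and 77.0 to 67.2, 100.8 and 131.4 CPM, a fold of 1.18 ± 0.24 (adjusted p = 0.0376), and the times overlapped. Gal3st1, which adds the sulfate of sulfatide, rose by 1.19 ± 0.26, and Enpp2, autotaxin, which makes lysophosphatidic acid, by 0.94 ± 0.20. Enpp2 is also made by the choroid plexus, whose list had it as its 1 called member of 10, with a median of 0.18 (−0.07 without replicate 1 of synuclein at 12 weeks). Plekhb1, a membrane-binding protein with a pleckstrin homology domain, was at 383.2, 495.5 and 644.2 CPM and then 763.7, 1146 and 1205 CPM, a fold of 1.05 ± 0.18 (adjusted p = 0.0177). In cholesterol synthesis 0 of 22 members passed with edgeR, DESeq2 or limma-voom, 0 had an unadjusted p under 0.05, and the median was 0.16. Iron genes were split, with 2 of 14 called and a median of 0.01. The called ones were Trf and Fth1, the heavy chain of the iron store ferritin, which went from 3631, 3935 and 4863 to 5408, 7390 and 9038 CPM without overlap, by 0.81 ± 0.16 (adjusted p = 0.0292).

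Of 15 genes for contact between oligodendrocytes and axons or astrocytes, 3 were called higher, with 9 above 0 and a median of 0.08. Cntn2, a contactin beside the node of Ranvier, went from 104.8, 129.8 and 167.1 to 183.5, 313.6 and 413.8 CPM, a fold of 1.21 ± 0.19 (adjusted p = 0.016). No library of one time reached the other. Nfasc, neurofascin of nodes and paranodes, rose by 0.97 ± 0.22, but its model shares a locus.

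A further 9 genes among the 15 smallest p-values in the higher direction belonged to none of the lists above. Nfix, of the nuclear factor I family that drives glial differentiation, was at 41.4, 49.0 and 62.6 CPM and then 67.7, 132.6 and 169.2 CPM, a fold of 1.35 ± 0.21 (adjusted p = 0.016). The other members of the family, 3 genes, were not called, and the family median was 0.24. Rassf2, a Ras-association protein, went from 19.2, 21.9 and 25.3 to 37.2, 63.2 and 152.0 CPM, a fold of 1.70 ± 0.28 (adjusted p = 0.0177), with all 12-week libraries above all 7-week libraries. Galnt6, which starts sugar chains on serine and threonine, rose by 1.46 ± 0.24, Trim59, of a family of ubiquitin ligases, by 1.42 ± 0.24, and Ddr1, a collagen-binding receptor kinase found in oligodendrocytes, by 1.32 ± 0.22. Aatk, a kinase of the nervous system, rose by 1.11 ± 0.19, Tmem88b, a membrane protein, by 1.10 ± 0.19, and Slc6a9, the glycine transporter of glia, by 1.24 ± 0.21. Of these 8 genes, 7 had no overlap between the times, and Slc6a9 had some (27.8 to 58.9 and 47.6 to 103.8 CPM). Hcn2, a pacemaker channel subunit, had a fold of 1.36 ± 0.24, but its deposited locus is shared by 49 gene models, so the reads may not be its own. Nfix, Aatk, Slc6a9 and Scd2 also share their locus with another model.

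The stretch just before the start site was read for the called genes, since Sox10 and Myrf were themselves called. RefSeq (GRCm38.p6) gave windows of 250 bases before a start for 13052 of 17380 genes, among them 67 of the 94 higher and 43 of the 51 lower genes. The core letters of a SOX site, ACAAAG on either strand, were in at least 1 window of 28.4% of higher genes (19 genes), 16.3% of lower genes (7 genes) and 15.5% of all genes (2025 genes). Letters of a Myrf site, CTGGCAC or CTGGTAC on either strand, were in 8.96% of higher genes, in 6 of 43 lower genes and in 7.03% of all genes. A match is a description of the letters and shows no binding. The windows of 3 higher genes are printed 5′ to 3′ on the gene's strand as examples of windows that hold these letters more than once or together, with the matches in capitals. Windows of the higher genes Prr18 and Nipal4 and of the lower gene Atp1b1 did so too, so this is not particular to the 3 or to higher genes. Mobp (chr9:120149492-120149741, plus strand) has 6 SOX cores. Cnp (chr11:100574689-100574938, plus strand) has a SOX core 167 bases and a Myrf match 81 bases before its start. Ddr1 (chr17:35704140-35704389, minus strand) has 2 SOX cores, 83 and 68 bases before its start.
Mobp: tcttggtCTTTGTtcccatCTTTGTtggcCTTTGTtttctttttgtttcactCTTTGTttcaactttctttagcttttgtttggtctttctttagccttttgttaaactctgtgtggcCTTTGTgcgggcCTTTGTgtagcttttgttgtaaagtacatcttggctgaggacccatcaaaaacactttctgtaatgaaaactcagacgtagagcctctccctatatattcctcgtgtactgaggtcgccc
Cnp: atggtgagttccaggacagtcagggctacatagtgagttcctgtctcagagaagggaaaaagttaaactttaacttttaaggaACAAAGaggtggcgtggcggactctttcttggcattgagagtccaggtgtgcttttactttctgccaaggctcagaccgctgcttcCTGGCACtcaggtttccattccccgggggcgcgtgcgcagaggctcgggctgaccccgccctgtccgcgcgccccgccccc
Ddr1: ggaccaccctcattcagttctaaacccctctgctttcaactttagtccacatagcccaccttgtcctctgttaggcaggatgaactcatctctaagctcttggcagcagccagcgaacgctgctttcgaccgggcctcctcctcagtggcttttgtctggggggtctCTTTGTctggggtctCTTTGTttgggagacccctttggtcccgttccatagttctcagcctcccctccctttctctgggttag

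Most neuronal markers had folds below 0, and few passed edgeR's test. Of 25 pan-neuronal markers 24 were below 0, with a median of −0.99, and 3 passed the test, against 0.293% of all genes called lower. That share is the background for each count of list members called lower below, and 47.0% of all genes were above 0. At edgeR's unadjusted p under 0.05, 19 of the 25 were lower and 0 higher, and 9.82% of all genes passed in either direction. DESeq2 called 11 of the 25 lower and limma-voom 4, against 181 and 42 of all 17380 genes. Snap25 (chromosome 2, 136713450 to 136782428), a membrane part of the SNARE complex that fuses synaptic vesicles, was at 309.1, 569.0 and 861.1 CPM at 7 weeks and at 122.9, 221.8 and 312.4 CPM at 12 weeks. Only the lowest 7-week value lay within the 12-week range. The fold was −1.40 ± 0.22 (adjusted p = 0.016), and between −1.52 and −1.12 with any 1 library left out. Stmn2 and Stmn3, stathmins that bind tubulin in growing neurites, fell by 1.04 ± 0.21 and 1.39 ± 0.28. Stmn2 went from 150.5, 172.2 and 372.8 to 83.2, 99.5 and 123.5 CPM without overlap. Gap43, a growth cone protein, had a fold of −1.33 ± 0.32 that did not pass (adjusted p = 0.0661). For all 4 of these genes the highest 7-week value was that of replicate 1 of synuclein, the library with the highest pan-neuronal sum. Without it the median of the 25 markers was −0.62.

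Among SNARE proteins and fusion machinery 3 of 22 fell, with 19 below 0 and a median of −0.66. Besides Snap25 these were Napb, which helps to take SNARE complexes apart again, and Cplx1, complexin, which clamps vesicles before release. Napb went from 58.9, 115.9 and 169.2 to 23.7, 45.0 and 67.6 CPM, a fold of −1.32 ± 0.26 (adjusted p = 0.031). Cplx1 went from 96.8, 322.1 and 649.4 to 87.3, 121.7 and 214.0 CPM, a fold of −1.50 ± 0.34 (adjusted p = 0.0483), with wide overlap. Of 26 proteins of the vesicle itself and its endocytosis, edgeR and limma-voom called 0 and DESeq2 1 in each direction, and 1 higher and 5 lower members had an unadjusted p under 0.05, with 19 below 0 and a median of −0.19, and their sums overlapped (2622 to 3613 and 2476 to 3294 CPM). Without replicate 1 of synuclein at 7 weeks that median was −0.05. Of the Rab3 group, which ties vesicles to the active zone, 2 of 18 fell: Rab3a by 1.07 ± 0.23, on a shared locus, and Rab3c by 1.28 ± 0.27. In the proton pump that fills vesicles and acidifies lysosomes, 1 of 17 subunits fell. This was Atp6v1g2, the subunit form of neurons, which went from 99.4, 130.1 and 208.8 to 30.7, 47.6 and 79.5 CPM without overlap, a fold of −1.45 ± 0.23 (adjusted p = 0.016). The median of the pump's 17 genes was −0.19 (−0.08 if replicate 1 of synuclein at 7 weeks is left out).

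The cytoskeletal list moved in both directions. Of 25 members 5 fell, Stmn2, Stmn3, Tubb2a, Tuba4a and Basp1, while 2 rose, Stmn4 and Tubb4a, and the median was −0.56. Tubb2a, a beta tubulin of young neurites, went from 128.0, 241.7 and 477.0 to 82.4, 110.2 and 172.5 CPM, a fold of −1.14 ± 0.25 (adjusted p = 0.0459). Tubb4a, the beta tubulin that is abundant in oligodendrocytes, went from 1507, 1687 and 2183 to 2285, 3439 and 4736 CPM without overlap, a fold of 0.97 ± 0.19 (adjusted p = 0.0263). Stmn4 rose by 1.12 ± 0.24. Kinesin and dynein motors had 0 of 21 called by edgeR, DESeq2 or limma-voom, 1 at an unadjusted p under 0.05 and a median of −0.02.

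Other genes with the smallest p-values in the lower direction belong to several functions. Gprasp2 (chromosome X, 135839034 to 135844730), which steers receptors to lysosomes, went from 51.9, 67.3 and 93.1 to 12.4, 22.3 and 35.4 CPM without overlap, a fold of −1.58 ± 0.24 (adjusted p = 0.016). Ywhah, a 14-3-3 adaptor, fell by 0.89 ± 0.16 as the 1 called member of 7. Zcchc12, a transcriptional coactivator, fell by 1.51 ± 0.28, Zwint, a kinetochore protein that neurons also express, by 1.31 ± 0.26, and Fam107a, an actin-binding protein, by 1.43 ± 0.27. Sult1a1, a sulfotransferase of phenols and catecholamines, went from 62.6, 108.8 and 207.8 to 16.5, 39.4 and 57.4 CPM without overlap, a fold of −1.61 ± 0.30 (adjusted p = 0.0246). Atp1b1, a beta subunit of the sodium pump, fell by 1.37 ± 0.26, on a shared locus. Ndn, necdin, an imprinted gene of postmitotic neurons, fell by 1.35 ± 0.26, and 19 of 21 imprinted genes were below 0, with a median of −0.74 and Ndn as the 1 called. At edgeR's unadjusted p under 0.05, 11 of these 21 were lower and 0 higher, and DESeq2 called 6 lower and limma-voom 1. Rgcc, a cell cycle regulator that responds to complement, went from 274.6, 342.1 and 574.4 to 123.8, 194.2 and 253.0 CPM, a fold of −1.07 ± 0.21. Rpl26, a ribosomal protein gene, was at 4.87, 4.62 and 16.4 CPM in saline and 10.1, 30.05 and 6.57 CPM in synuclein at 7 weeks. At 12 weeks it was at 0 in all 3 saline libraries and at 4.80, 10.97 and 7.93 CPM in synuclein. Its fitted fold depends on how 0 is treated and is not given, its model shares a locus, and it was the 1 called of 55 ribosomal protein genes.

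Of 15 genes for dopamine synthesis, transport and release 2 were called lower, Th and Slc18a2, against 0.293% of all genes tested. Folds of 13 were below 0, with a median of −0.79 (−0.44 in saline and −0.50 in synuclein), while 47.0% of all genes were above 0. Without replicate 1 of synuclein at 7 weeks the median was −0.34, and 0 to 4 members were called lower with 1 library left out. Th (chromosome 7, 142892776 to 142899966), tyrosine hydroxylase, was at 232.8, 509.9 and 857.6 CPM at 7 weeks and 160.5, 195.1 and 333.8 CPM at 12 weeks. The times overlapped at the lower end of the 7-week range. The fold was −1.29 ± 0.27 (adjusted p = 0.0376), and the call held in 2 of the 12 fits with 1 library left out, with folds of −1.45 to −1.01. Slc18a2, which loads dopamine into vesicles, went from 70.6, 113.0 and 239.2 to 30.7, 45.7 and 99.2 CPM, a fold of −1.45 ± 0.32 (adjusted p = 0.0469), called in 3 of the 12 fits. Slc6a3, the plasma membrane transporter, went from 144.6, 405.0 and 637.8 to 91.7, 140.3 and 318.7 CPM and missed the threshold, at −1.26 ± 0.29 (adjusted p = 0.0569). Ddc, the enzyme after Th, was at −0.47 ± 0.25 (adjusted p = 0.570) on a shared locus. Summed over the 15 genes, the levels of the times overlapped, 2377 to 4367 CPM with a median of 3006 at 7 weeks and 2489 to 4176 CPM with a median of 3181 at 12 weeks. The median sum was thus higher at 12 weeks although the median fold was below 0. Of the 15 genes 2 had folds above 0, the higher at 0.785. At edgeR's unadjusted p under 0.05, 1 was higher and 7 lower. DESeq2 called 1 higher and 6 lower, and limma-voom 0 higher and 1 lower.

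Of 12 transcription factors and other identity genes of these neurons, 0 were called by edgeR (3 lower at an unadjusted p under 0.05, 1 called by DESeq2 and 0 by limma-voom). Folds of 9 were below 0 and the median was −0.31. With 1 library left out the median lay between −0.52 (without replicate 1 of saline at 12 weeks) and −0.22 (without replicate 3 of that group). Nr4a2, which keeps the dopaminergic program on, was at 33.7 to 82.1 and 13.5 to 36.0 CPM, a fold of −1.19 ± 0.31 (adjusted p = 0.0948). Genes that mark subtypes in the nigra and the ventral tegmental area had 3 of 18 called lower, against 0.293% of all genes tested. Of the 18, 15 were below 0, with a median of −0.77, and their sums did not overlap (427.1 to 1017 and 268.5 to 403.4 CPM). With 1 library left out 0 to 4 of them were called lower, and the median was −0.41 without replicate 2 of saline at 7 weeks. Sums without overlap were not particular to this list and the pan-neuronal markers. Those of the iron genes (9737 to 11541 and 11783 to 19805 CPM) and the meningeal genes (1992 to 3146 and 3213 to 7677 CPM) also lay apart, higher at 12 weeks. Median folds of these 2 lists were 0.01 and 0.02. Chrna6, a nicotinic receptor subunit of dopaminergic terminals, went from 21.4, 65.1 and 133.4 to 11.6, 19.6 and 28.7 CPM, a fold of −1.87 ± 0.35 (adjusted p = 0.026). Cck, the neuropeptide cholecystokinin, went from 26.6, 40.6 and 47.2 to 10.7, 14.3 and 27.0 CPM, a fold of −1.34 ± 0.26 (adjusted p = 0.0288). Calb1, the calcium buffer calbindin, fell by 1.40 ± 0.29. Aldh1a1, which clears dopamine aldehyde in ventral nigral cells, had a fold of −1.24 ± 0.36 and did not pass (adjusted p = 0.143). Of 24 neuropeptide precursors 2 fell, Cck and Scg2, a secretogranin of dense-core vesicles. The list's median was −0.84 (−0.30 in saline and −1.13 in synuclein), and −0.54 without replicate 2 of saline at 7 weeks. Among 21 synuclein and inherited parkinsonism genes 1 fell, Atp13a2, a lysosomal polyamine exporter, from 60.6, 87.4 and 126.7 to 37.4, 44.5 and 64.6 CPM, a fold of −0.98 ± 0.22 (adjusted p = 0.0451). The list's median was −0.03.

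A full cAMP response element, TGACGTCA, was in a window of 6 of the 43 lower genes with one, 2.99% of the higher genes (2 genes) and 2.74% of all genes with a window (357 genes). The letters read the same on both strands. The 6 lower genes were Th, Scg2, Tubb2a, Ywhah, Zwint and Rpl26. The other 2 motifs searched were rare: the palindrome of NRF1, GCGCA joined to its reverse complement, was in 2.99%, 0% and 1.51% of higher, lower and all genes, and TTCAGCACC, part of a REST site, in 0%, 0% and 0.421%. Windows of 5 of these genes are shown, with the element in capitals at 45 (Th), 68 (Scg2), 59 (Tubb2a), 96 (Ywhah) and 23 (Zwint) bases before the start. They lie at chr7:142899996-142900245 (minus strand), chr1:79440027-79440276 (minus), chr13:34078009-34078258 (minus), chr5:33018566-33018815 (plus) and chr10:72654596-72654845 (plus).
Th: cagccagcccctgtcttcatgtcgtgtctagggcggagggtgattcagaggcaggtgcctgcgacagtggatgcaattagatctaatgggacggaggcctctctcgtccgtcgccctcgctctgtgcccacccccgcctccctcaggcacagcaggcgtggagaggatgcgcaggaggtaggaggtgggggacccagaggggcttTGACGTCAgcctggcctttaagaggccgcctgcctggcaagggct
Scg2: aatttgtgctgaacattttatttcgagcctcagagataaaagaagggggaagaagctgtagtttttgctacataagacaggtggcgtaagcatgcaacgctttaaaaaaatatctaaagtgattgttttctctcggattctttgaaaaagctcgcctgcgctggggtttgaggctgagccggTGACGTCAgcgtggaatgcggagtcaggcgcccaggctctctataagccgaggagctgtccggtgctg
Tubb2a: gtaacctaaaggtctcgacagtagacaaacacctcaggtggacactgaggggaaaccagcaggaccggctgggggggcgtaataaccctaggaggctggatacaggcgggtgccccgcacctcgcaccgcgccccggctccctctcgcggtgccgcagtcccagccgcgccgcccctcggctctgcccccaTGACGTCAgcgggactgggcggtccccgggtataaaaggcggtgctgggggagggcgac
Ywhah: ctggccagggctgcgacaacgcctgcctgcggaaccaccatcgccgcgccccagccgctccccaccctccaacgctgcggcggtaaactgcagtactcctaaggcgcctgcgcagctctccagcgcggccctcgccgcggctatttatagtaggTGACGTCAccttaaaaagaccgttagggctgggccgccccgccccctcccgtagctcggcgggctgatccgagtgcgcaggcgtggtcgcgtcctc
Zwint: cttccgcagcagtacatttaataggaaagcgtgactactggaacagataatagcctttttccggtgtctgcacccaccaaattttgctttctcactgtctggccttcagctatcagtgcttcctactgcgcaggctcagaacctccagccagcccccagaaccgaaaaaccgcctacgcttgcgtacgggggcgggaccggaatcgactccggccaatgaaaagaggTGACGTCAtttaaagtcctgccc

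Of the vascular lists, endothelial genes had folds below 0 and pericyte genes were split. All 23 genes of brain endothelium and the blood-brain barrier were below 0, with a median of −0.31 (−0.62 in saline and −0.15 in synuclein, and −0.19 over both without replicate 3 of saline at 7 weeks), and 1 fell. This was Slc2a1 (chromosome 4, 119108745 to 119137329), the glucose transporter of the barrier, which went from 2198, 3496 and 5239 to 988.1, 1710 and 2513 CPM, a fold of −1.07 ± 0.23 (adjusted p = 0.0379) with some overlap. Ly6c1, high in endothelium, was at −0.69 ± 0.20 (adjusted p = 0.154). Of the 23 endothelial genes, 9 were lower and 0 higher at edgeR's unadjusted p under 0.05, and DESeq2 called 3 lower and limma-voom 1. Of 17 pericyte and smooth muscle genes edgeR, DESeq2 and limma-voom called 0 and 0 had an unadjusted p under 0.05, with 8 above 0 and 9 below. Their summed level had a median of 305.6 CPM at 7 weeks and 504.7 CPM at 12 weeks. The median fold was −0.28. It was 0.50 with replicate 3 of synuclein at 7 weeks left out, which held 1517 CPM of these genes. Ependymal genes, of the ciliated lining of the ventricles, had the highest median of any list, 1.93, and 18 of 18 were above 0. EdgeR and limma-voom called 0 of them and DESeq2 3, and 9 had an unadjusted p under 0.05. Tmem212, the member with the widest fold, was at 0 to 2.86 CPM at 7 weeks and 0 to 105.5 CPM at 12 weeks (4.32 ± 1.05, adjusted p = 0.0752). Replicate 1 of synuclein at 12 weeks held 1304 CPM of these genes, against 302.2 to 622.3 CPM in the others, and without it the list's median was 0.69. Ptgds, prostaglandin D synthase of meninges, oligodendrocytes and choroid plexus, rose from 1399, 1872 and 2304 to 2548, 3905 and 7273 CPM, by 1.18 ± 0.23 (adjusted p = 0.0288), while its meningeal list had a median of 0.02. C4b, a complement component, rose from 6.87, 12.4 and 28.9 to 23.9, 32.3 and 54.4 CPM, by 1.43 ± 0.30, as 1 of 18 complement genes. Astrocyte markers had 0 of 21 called by edgeR (3 higher and 1 lower at an unadjusted p under 0.05) and a median of 0.10. Microglia markers had 0 of 18 called by edgeR, DESeq2 or limma-voom (5 lower at an unadjusted p under 0.05) and a median of −0.80. The microglial median was 0.07 in saline and −1.65 in synuclein, where replicate 3 at 7 weeks held 810.2 CPM of these markers against 95.7 to 301.1 in all others. Without that library it was −0.38 over both treatments.

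**Figure D4:**
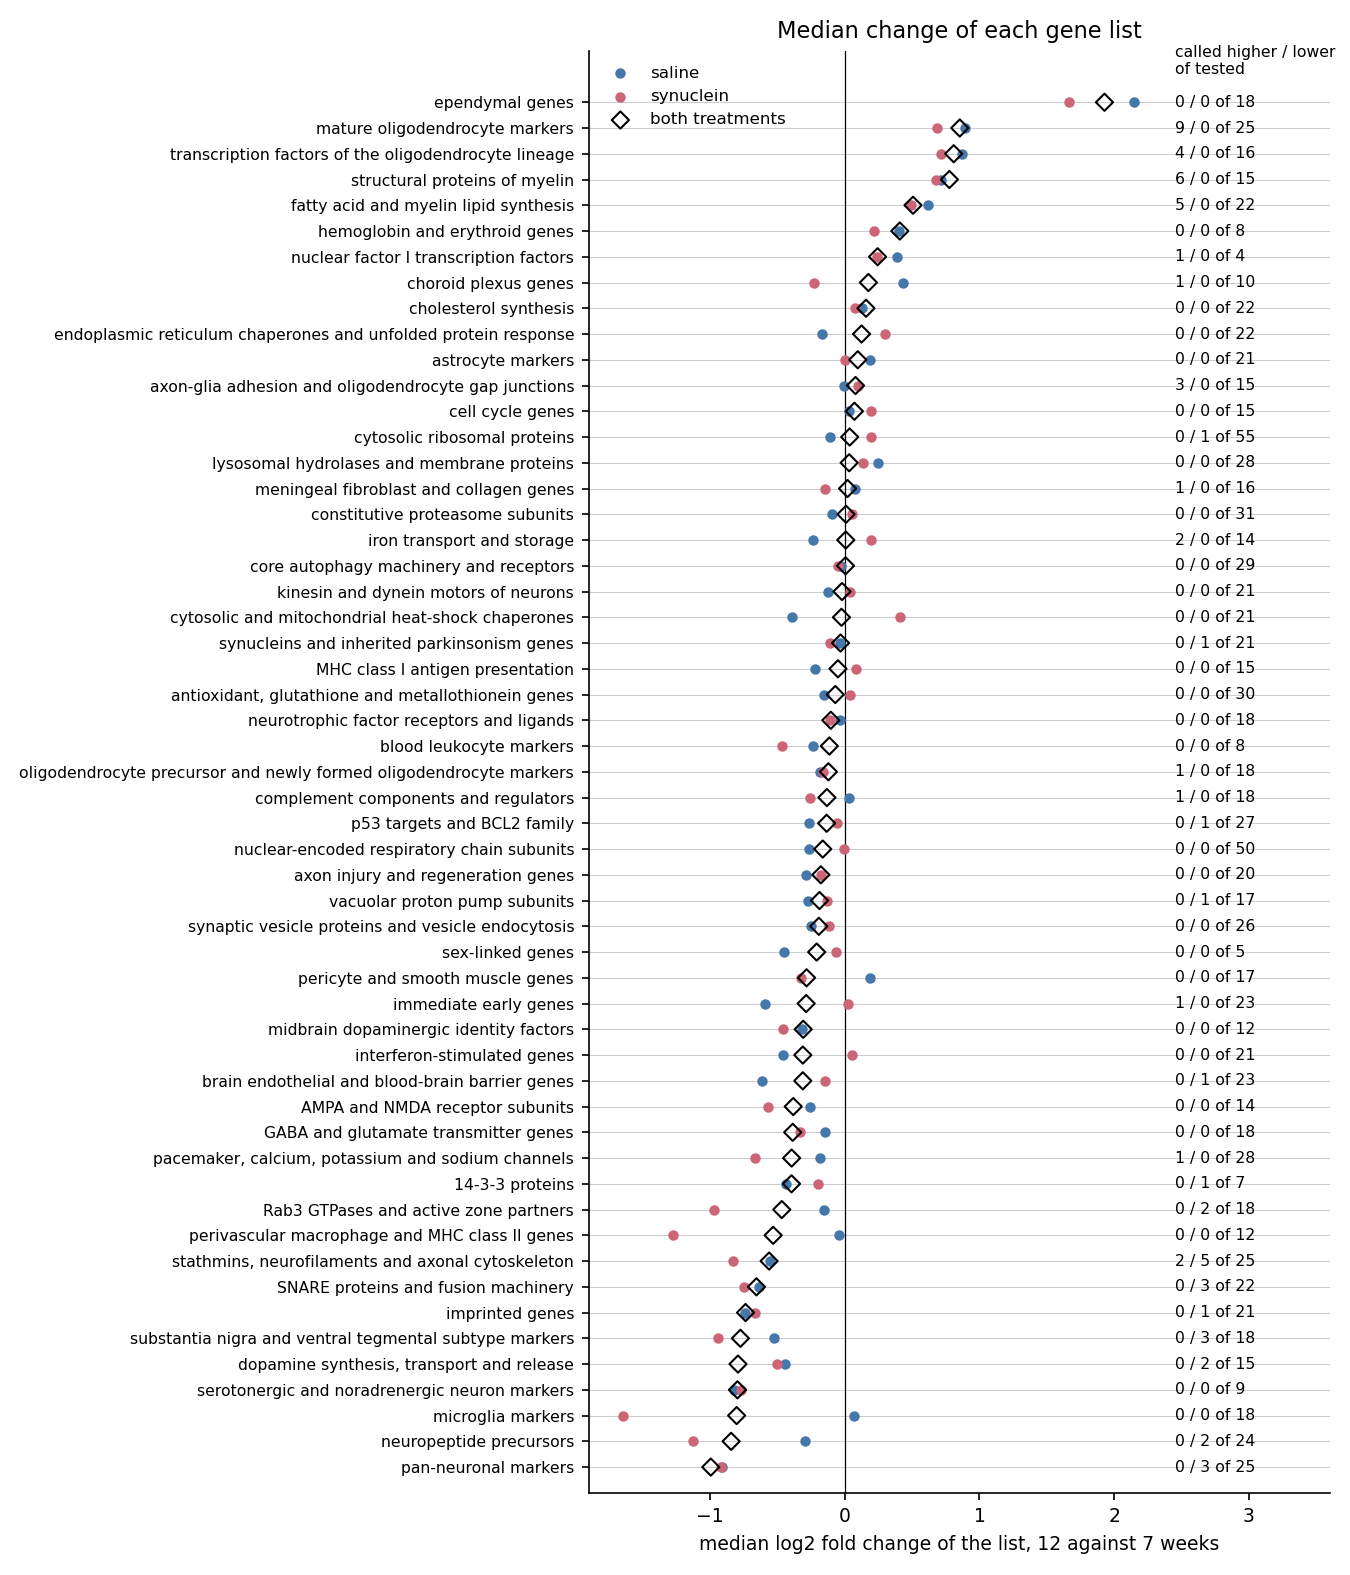
Median log2 fold change from 7 to 12 weeks of each of 54 gene lists over both treatments (diamonds), in saline and in synuclein (circles), with the number of members called higher and lower of those tested. Myelin proteins, mature oligodendrocyte markers and factors of that lineage lie above 0 with 4 to 9 called members, while precursor markers lie at −0.12 with 1 called. Pan-neuronal markers lie lowest at −0.99, and the ependymal list lies highest at 1.93 with 0 called.

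Housekeeping and stress lists stayed near the median of all genes. Lists of respiratory chain, proteasome, lysosome, autophagy, antioxidant, heat-shock and endoplasmic reticulum chaperone genes had 0 members called by edgeR or limma-voom, with medians between −0.16 and 0.12. DESeq2 called 1 member each of the lysosome, antioxidant and heat-shock lists, all higher. At an unadjusted p under 0.05 each list had between 1 and 5 members. The heat-shock median was −0.39 in saline and 0.41 in synuclein. Immediate early genes had 1 of 23 called, Arc, which scales synaptic receptors, from 12.3, 17.3 and 26.8 to 23.2, 44.7 and 62.9 CPM (1.29 ± 0.26), while 17 of 23 were below 0. Of 27 p53 and BCL2 family genes 1 fell, Bcl2l1, which blocks apoptosis, by 0.82 ± 0.18, on a shared locus.

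The change was set side by side in the 2 treatments, which share no library. In saline alone and in synuclein alone edgeR called 0 genes each, with 1289 (7.42%) and 1318 (7.58%) at an unadjusted p under 0.05. The test of the difference between the 2 changes also called 0, as did DESeq2 and limma-voom, with 780 (4.49%) at an unadjusted p under 0.05. Over all genes tested the folds in saline and in synuclein had a Pearson correlation of 0.091 and 52.5% of genes had the same sign. Over the 2158 genes above 100 CPM the correlation was 0.655 and 57.7% had the same sign. Genes share libraries and are not replicates. All 94 higher genes and 50 of the 51 lower genes had the same sign in both treatments, which the average used to call them favours. The exception, Gm5512, a predicted gene, was at 0, 0 and 0.29 CPM in saline at 12 weeks against 6.01 to 12.6 CPM at 7 weeks, while synuclein had 2.58 to 17.7 and 11.8 to 12.98 CPM. Medians of the higher genes were 1.12 in saline and 1.04 in synuclein, and of the lower genes −1.31 and −1.37. Mbp rose by 1.24 ± 0.23 in saline and 0.95 ± 0.23 in synuclein, and Sox10 by 1.97 ± 0.35 and 1.28 ± 0.35. Th fell by 1.16 ± 0.38 in saline and 1.41 ± 0.38 in synuclein. Wider gaps were seen for Galnt6 (2.02 ± 0.34 and 0.91 ± 0.33) and Nipal4 (2.06 ± 0.35 and 0.71 ± 0.35). For the difference edgeR's unadjusted p was 0.0315 for Galnt6 and 0.0143 for Nipal4. For Rpl26, at 0 in all 3 saline libraries at 12 weeks, it was 0.000548. None of these passed the adjusted threshold. Of the 94 higher and 51 lower genes, 5 and 5 had an unadjusted p under 0.05 for the difference.

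**Figure D5:**
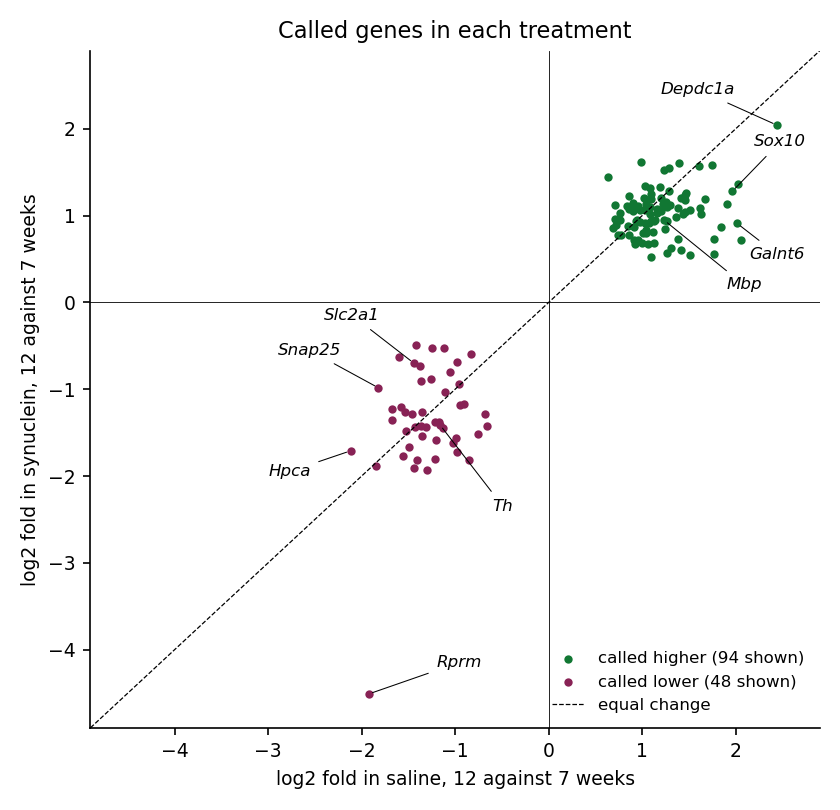
Log2 fold change from 7 to 12 weeks in saline (horizontal axis) and in synuclein (vertical axis) for the called genes, with the line of equal change dashed and 3 genes at or near 0 in a whole group (Rpl26, Rassf6 and Gm5512) left out. The 94 genes called higher lie in the upper right and the other lower genes in the lower left. Medians in saline and synuclein were 1.12 and 1.04 for the higher genes. They were −1.31 and −1.37 for all 51 lower genes, including the 3 left out here.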

How the data were processed

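RNA was measured in 12 libraries of 4 groups of 3. Per the submitters' processing notes, the authors used TopHat2 2.0.13 with Bowtie2 2.2.3 for alignment and Cufflinks 2.2.1 for gene values. The deposited values are the authors' estimated counts and FPKM, 1 of each per gene and library, and the sources used here name no build. The authors' scaling is visible in the deposited counts, of which 99.0% to 99.3% per library (values under 300) were whole multiples, within 0.02, of 1 step between 0.685 and 1.298. Dividing by it gave 2506730 to 5533324 fragments per library, and the tables used here hold no mitochondrial genes. No column lacked a sample.

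The counts were rounded and fitted in edgeR 4.0.16 (R 4.3.3) with filterByExpr, TMM factors, 1 mean per group and quasi-likelihood tests with 8 residual degrees of freedom. P-values were adjusted over 17380 genes by Benjamini and Hochberg's method, with a threshold of 0.05. The common biological coefficient of variation was 46.6%, and the median standard error of a fold was 0.37, or 0.18 above 100 CPM. DESeq2 1.42.0, limma 3.58.1, other scalings, filters, FPKM, a replicate block and left-out libraries were alternatives.

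The comparison, the 54 gene lists (1102 of 1107 entries in the table) and the tests were chosen with earlier results of these data known, and the contrast over both treatments had been added after the separate ones were seen, so list counts are descriptions. The text names the 15 genes with the smallest p in each direction, leaving out predicted and small models, then Th, Slc6a3, Slc18a2, Ddc, Mbp, Sox10 and Snap25, and up to 4 members per list, called ones first. Not all are printed, and some results are not reported here. Frmd5, Gm5512, Rassf6, Rprm, Gpm6b, Mobp, Apod, Hapln2, Tuba4a, Prr18, Nipal4 and most genes of the other observations were chosen after their values were seen. Promoter windows are RefSeq's for GRCm38.p6, where 95.1% of gene names were found and for 68.0% of the names found the start and the end differed by at most 1000 bases.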

Additional observations from a re-analysis of the deposited data

Results flagged for a closer look

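In 21 of 338 sets of 6 libraries (a gene's CPM or a list's summed CPM at 1 time), the highest or lowest library stood apart from the other 5 by a gap above Dixon's critical share of the range on the log2 scale, which chance gives in about 1 set in 20. Replicate 1 of synuclein at 7 weeks was highest for Ndn (474.4 CPM, others 138.3 to 218.1), Rab3a (308.6 CPM, others 117.3 to 161.7), Tuba4a (193.8 CPM, others 90.3 to 106.5) and the neuropeptide precursors (1755 CPM, others 724.3 to 938.3). The 3 genes were called lower at 12 weeks. Without that library their folds were −1.002, −0.76 and −0.87, and none passed edgeR's test (adjusted p = 0.07, 0.117 and 0.134).

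Replicate 3 of synuclein at 7 weeks stood apart for Rarres2, chemerin (20.9 CPM, others 1.72 to 4.33), for pericyte and smooth muscle genes (1517 CPM, others 256.3 to 470.2), kinesin and dynein motors (2538 CPM, others 3057 to 3361) and axon injury genes (1044 CPM, others 1455 to 1675). Replicate 3 of saline at 7 weeks was highest for proteasome subunits (6562 CPM) and antioxidant genes (6299 CPM) and lowest for Nfasc (35.9 CPM). Also at 7 weeks, replicate 2 of saline was lowest for Pdgfra (3.46 CPM) and for Nipal4 (9.23 CPM) and replicate 2 of synuclein lowest for Trim59 (30.9 CPM).

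At 12 weeks replicate 2 of synuclein was highest for Pdgfra (16.7 CPM, others 6.21 to 7.83) and for kinesin and dynein motors (3731 CPM, others 2822 to 3083). Replicate 1 of synuclein was lowest for Gbp2b (9.59 CPM) and replicate 3 for Nfix (67.7 CPM, others 120.6 to 169.3). Replicate 2 of saline was lowest for Slc6a9 (47.6 CPM), for Pgrmc1 (133.1 CPM) and for the 14-3-3 proteins (2523 CPM).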

How the results depend on the processing

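The directions of the called genes held and the counts did not. These genes were picked by their folds in the same libraries, which the fits reuse, so a kept sign was favoured in advance. Several list medians changed sign between settings, such as that of the iron genes (−0.235 to 0.198). With 1 library left out the number of called genes ranged from 24 to 214, with 18 to 159 higher and 5 to 90 lower, and 0 for the difference between the treatments in each of these fits. Without replicates 1 and 2 of synuclein at 12 weeks, in saline alone and in synuclein alone it was 0, with 0 higher and 0 lower. DESeq2 called 449 (268 higher, 181 lower), limma on log2(FPKM + 0.1) 1 (0 higher, 1 lower) and on log2(FPKM + 1) 5 (3 higher, 2 lower). For the difference between the treatments both FPKM fits called 1 gene. Limma-voom, RLE, upper-quartile or no scaling factors, no filter or a filter of 5 CPM in 6 libraries, recovered whole fragments (142 called) and an additive model gave 118 to 200. The labels do not say whether equal replicate numbers pair libraries. Deviations from group means had correlations of −0.06 to 0.11 over 18 same-numbered pairs (median 0.036, 1 above 0.1). Over 36 other pairs they were −0.155 to 0.11 (median −0.028, 1 above 0.1). Such low values cannot exclude pairing. With the replicate number as a block 246 genes were called, 160 higher and 86 lower, and 142 of the 145 were among them. Over the 27 settings each called gene with a value kept its sign, except Gm5512, at 0.13 in synuclein alone. The cause of these shifts was not tested. The median of all genes moved by less than 0.1 under each scaling. The median standard error of a fold was 0.37 over all genes tested and 0.18 above 100 CPM, so smaller changes of weakly expressed genes could not be seen.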

Other observations

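Of the 94 genes called higher, 63 were outside the lists, against 16377 of all 17380 genes tested. The following were chosen from the 63 after their values were seen. Gatm, which makes the precursor of creatine, rose from 655.7, 789.0 and 982.9 to 1143, 1526 and 2178 CPM (lowest, median and highest of 6 libraries) without overlap, by 0.97 ± 0.18 on the log2 scale (SE, edgeR adjusted p = 0.022). Aplp1, a relative of the amyloid precursor protein, rose from 1529, 1595 and 1932 to 1991, 3420 and 4736 CPM, by 1.02 ± 0.19. Gpr37, a receptor of oligodendrocytes and a substrate of parkin, rose by 1.01 ± 0.20, from 141.2 to 233.7 CPM at 7 weeks to 266.4 to 594.2 CPM at 12 weeks. Il33, an alarmin stored in nuclei of glia, rose by 1.15 ± 0.25, with overlap. The lipid transporters Abca2 and Abca8a rose by 1.05 ± 0.19 and 1.67 ± 0.33, Fgfr2, a growth factor receptor of oligodendrocytes, by 1.21 ± 0.23, and Dbi, an acyl-CoA-binding protein, by 1.03 ± 0.19. Abca2 and Ncam1 each share their deposited locus with another gene. Hepacam, an adhesion protein of glia, rose by 1.10 ± 0.21, Ncam1, an adhesion protein of neurons and glia, by 0.95 ± 0.18, and Edil3, an integrin-binding matrix protein, by 1.04 ± 0.23. Frmd5, of the band 4.1 family, went from 15.2, 31.7 and 40.4 to 69.4, 71.9 and 80.9 CPM, a fold of 1.29 ± 0.23 (adjusted p = 0.0211), and was called with each of the 12 libraries left out. Nkain1, which binds the sodium pump's beta subunit, rose by 1.59 ± 0.28, from 14.3 to 31.5 CPM to 44.2 to 97.6 CPM.

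Of the 51 genes called lower, 28 were outside the lists, against 16377 of all 17380 genes tested. The 28 included both neuronal and other genes. Tagln3, an actin-binding protein of neurons, went from 71.1, 99.7 and 236.0 to 28.8, 45.9 and 62.3 CPM without overlap, a fold of −1.51 ± 0.30 (adjusted p = 0.031). Rtn1, a reticulon of neurons, fell by 1.39 ± 0.31, Pcp4, a calmodulin-binding protein, by 1.11 ± 0.25, and Gpm6a, the neuronal relative of Gpm6b, by 1.04 ± 0.24, while Gpm6b rose. Ldhb, a lactate dehydrogenase subunit, fell by 0.95 ± 0.20. S1pr1, a lipid receptor of endothelium and astrocytes, fell by 0.95 ± 0.22, and Tsc22d3, which glucocorticoids induce, went from 357.1, 499.7 and 792.8 to 63.3, 197.8 and 337.4 CPM without overlap, a fold of −1.39 ± 0.29 (adjusted p = 0.0376). Plxna2, a semaphorin receptor, fell by 1.05 ± 0.24.

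A few called genes rest on low counts. Rprm, a p53 target, was at 2.86 to 17.1 CPM at 7 weeks and 0 to 2.56 CPM at 12 weeks. Rassf6 was at 1.73 to 13.7 CPM at 7 weeks, at 4.93, 1.42 and 2.01 CPM in saline at 12 weeks and at 0 in all 3 synuclein libraries at 12 weeks, and it lost its call with each of the 12 libraries left out. Hpca, a neuronal calcium sensor, was at 17.5 to 24.6 and 2.297 to 13.04 CPM on a locus it shares with another gene, and Depdc1a at 0.86 to 6.36 and 6.60 to 34.6 CPM. Serotonergic genes ranged widely: Tph2 was at 8.29 to 503.6 CPM at 7 weeks and 0.57 to 152.2 at 12 weeks, a fold of −2.12 ± 0.87 that did not pass the test (adjusted p = 0.406).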
